A study of Mus musculus with 4 samples.

Results

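Border and perivascular macrophages were taken from MERFISH data of mouse brain as the cells richest in macrophage transcripts, and 313 such cells were found among 281824 kept cells, 0.111% of them. A cell was taken when at least 3 of the 5 genes Mrc1, Pf4, Ms4a7, Lyz2 and Dab2 were detected, when these made up at least 4% of its transcripts, and when their sum was larger than that of the 4 microglia genes P2ry12, Tmem119, Siglech and Cx3cr1. The cells are called macrophage-like here, since they were chosen on measured counts and no annotation of cells was used. These 9 genes are therefore described and not tested.

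MERFISH images single mRNA molecules in place, and here counted 383 genes in every segmented cell of 4 coronal slices through the striatum, each 10 µm thick. Both hemispheres were cut, and the slices also hold the tissue around the striatum. There were 2 sections from young mice (2 months, Young 1 and Young 2) and 2 from aged mice (18 months, Aged 1 and Aged 2), all wild-type C57BL/6NTac animals by the study's methods, and the study asked how cells of the striatum change with age. Of 320663 segmented cells, those with at least 10 detected genes and a volume of at least 50 cubic micrometres were kept. Median transcripts per kept cell were 400 for Young 1, 325 for Young 2, 215 for Aged 1 and 293 for Aged 2, so Aged 1 was the shallowest. Sections, not cells, were the replicates. The study's methods call its replicates biological, but the labels do not tie each section to a mouse, so p-values measure the spread between these sections.

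Macrophages of the brain borders live in the meninges, around blood vessels and in the choroid plexus, outside the tissue proper that microglia occupy. They take up material from the fluid that drains along the vessels, and some present antigen on MHC class II. The mannose receptor Mrc1, the chemokine Pf4, the membrane protein Ms4a7, lysozyme (Lyz2) and the endocytic adaptor Dab2 are commonly used to tell them from microglia, which carry the purine receptor P2ry12 and the membrane protein Tmem119.

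Young 1 held 74 macrophage-like cells, Young 2 held 105, Aged 1 held 65 and Aged 2 held 69. All 5 marker genes were detected in 44 of them, 4 in 140 and 3 in 129. Mrc1 was found in nearly all members, with a transcript in 100% and 100% of those in Young 1 and Young 2 and in 96.9% and 97.1% of those in Aged 1 and Aged 2. Dab2 was detected in 84.6% to 98.6% of members of a section, Lyz2 in 75.2% to 87.7% and Ms4a7 in 66.7% to 78.1%. Pf4 was the weakest of the 5, detected in 20.3% to 33.8%. On the microglia side, Tmem119 was detected in 1.5% to 4.3% of members, whereas P2ry12 was detected in 35.4% to 55.2%, and 199 of the 313 cells held a transcript of at least 1 of the 4 microglia genes.

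The minimum of 4% removed most cells that carried the macrophage genes. Of 1874 kept cells with at least 3 of the macrophage genes, 1559 fell under 4%, and 2 more had a microglia sum at least as high. Members between 4% and 5% numbered 51, and 103 cells with at least 3 of the genes lay between 3% and 4%. A further 113 cells were above 4% but had only 2 of the genes. The median member had 7.30%, 7.0%, 8.13% and 6.57% of its transcripts from the 5 genes in Young 1, Young 2, Aged 1 and Aged 2. Members were shallower than the average kept cell, with a median of 235.5, 186, 154 and 176 transcripts in that order, and 52 held fewer than 100. No cell barcode was shared between sections.

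For comparison, 6157 microglia-like cells were taken by the mirrored rule (at least 3 of the 4 microglia genes, at least 4% of transcripts, and a sum at least that of the macrophage genes). Their depth was close to that of the members, with medians of 234, 207, 158 and 192.5 transcripts. Members often carried transcripts of other cell types. In 191 of the 313 (61.0%), at least 3 markers of another cell type were detected, and these are called mixed cells. Astrocyte markers reached that number in 39.2%, 30.5%, 23.1% and 46.4% of members of Young 1, Young 2, Aged 1 and Aged 2, and markers of mural cells, the smooth muscle cells and pericytes of vessel walls, in 44.6%, 30.5%, 32.3% and 26.1%. Microglia-like cells were mixed nearly as often, 3223 of 6157 (52.3%) by the same rule, with astrocyte markers in 18.9% to 24.9% of a section's cells and mural markers in 1.77% to 2.77%. The summed level of the 5 mural markers was 573, 528, 499 and 415 transcripts per 10000 transcripts of the members, against 53.0 ± 13.1 (SD, n = 4 sections) in microglia-like cells. The B cell gene Igkc was at 0 in all members, which allows a level of up to 0.390 per 10000. The T cell markers summed to 0.737 ± 0.745 (SD, n = 4) per 10000, against 1.56 in microglia-like cells.

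Macrophage-like cells lay at the outer edge of the sections and beside vessels far more often than microglia-like cells, in each of the 4 sections. The edge was drawn around the area with kept cells, and cells within 150 µm of it are called surface cells and the others deep cells. Of the members of Young 1, Young 2, Aged 1 and Aged 2, 23%, 30.5%, 41.5% and 42.0% were surface cells. Of microglia-like cells, 7.44%, 9.39%, 10.3% and 10.9% were, and of all kept cells 9.22%, 7.80%, 8.09% and 9.49%. The class difference was 24.7 ± 7.76 percentage points (SD, n = 4 sections). It was positive in 4 of 4 sections, for which the two-sided exact sign-flip permutation test gives 0.125, the smallest p that 4 pairs allow. Position was not used to choose the cells. In all, 105 members were surface cells and 208 were deep.

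**Figure D1:**
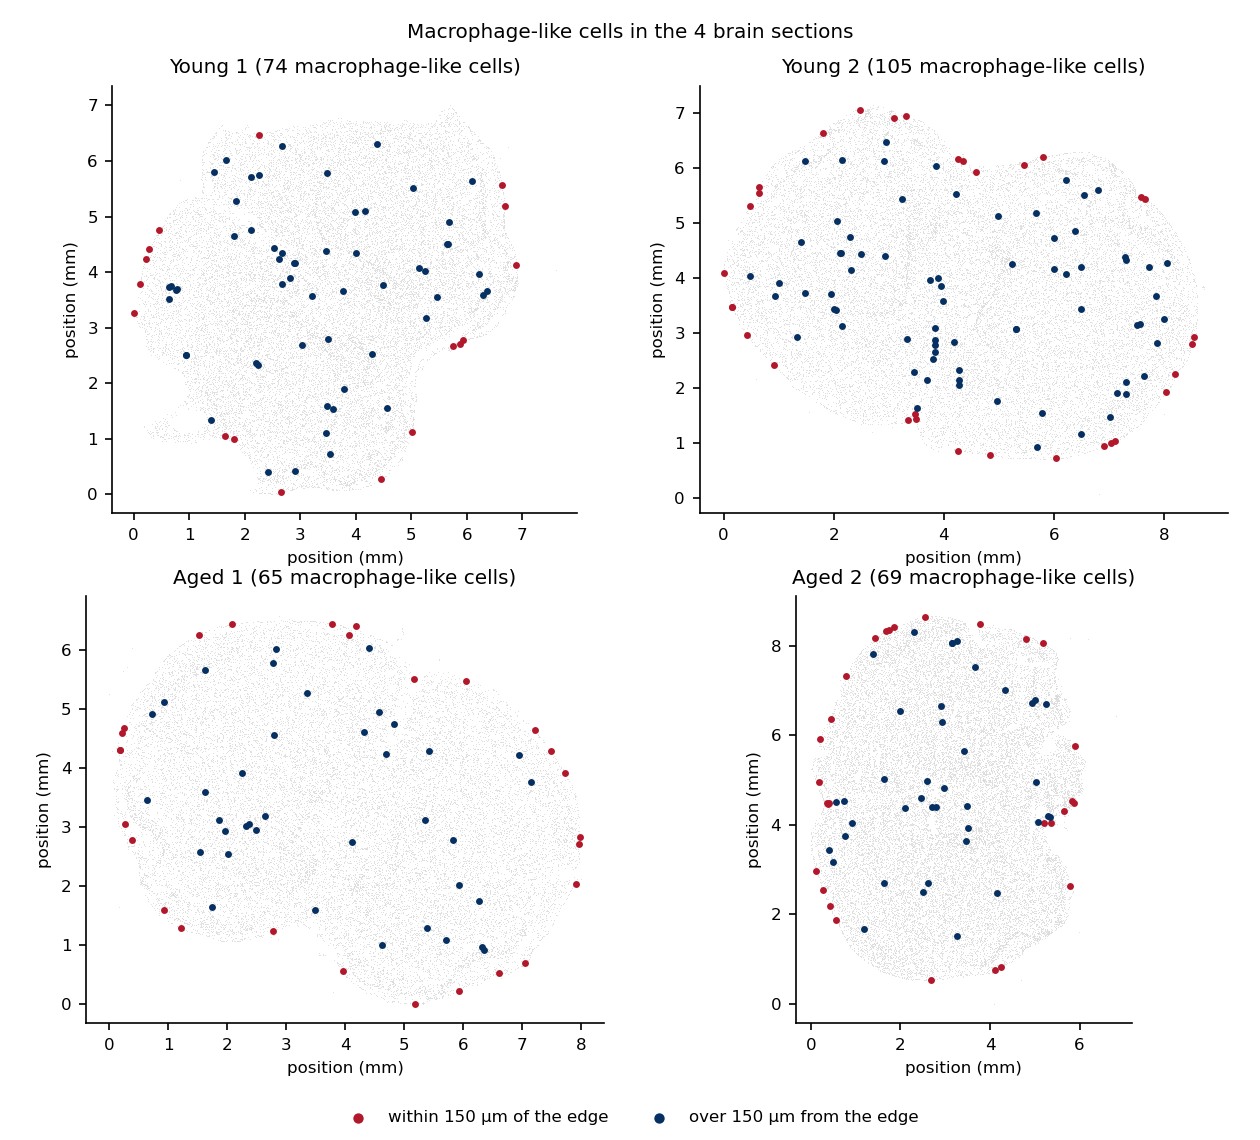
Position in mm of each macrophage-like cell in the 4 sections, red within 150 µm of the outer edge and dark blue deeper, over a thinned grey background of kept cells. Red cells trace the outline, and dark blue cells are scattered through the tissue.

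Members also lay next to vessels. Mural-like cells were within 20 µm of 54.1%, 43.8%, 30.8% and 37.7% of members of Young 1, Young 2, Aged 1 and Aged 2. The corresponding shares of microglia-like cells were 7.33%, 6.38%, 6.90% and 7.97%. No section's members came near those values, and the difference was 34.4 ± 9.90 percentage points (SD, n = 4; exact p = 0.125). Endothelial-like cells, which line the vessels, were within 20 µm of 54.1%, 32.4%, 35.4% and 42.0% of members, against 14.9% to 17.8% of microglia-like cells, a difference of 24.4 ± 8.76 percentage points with the same exact p of 0.125. The median distance to the nearest mural-like cell was 14.7, 24.2, 40.3 and 33.9 µm for members and 62.9 to 70.8 µm for microglia-like cells.

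Vessel walls were closer to deep than to surface members. Of deep members, 61.4%, 54.8%, 47.4% and 57.5% lay within 20 µm of a mural-like cell in Young 1, Young 2, Aged 1 and Aged 2. Of surface members, 29.4%, 18.8%, 7.41% and 10.3% did, lower than the deep members of the same section in 4 of 4 (difference -38.8 ± 6.46 percentage points, SD; exact p = 0.125). Cells with at least 2 of the fibroblast markers Mgp, Aldh1a2, Inmt and Mmp2, at 4% of transcripts or more, showed the opposite pattern. A section held 87 to 149 such cells. They were within 100 µm of 41.2%, 50%, 29.6% and 62.1% of surface members and of 17.5%, 19.2%, 7.89% and 22.5% of deep members (difference 28.9 ± 8.10 percentage points, SD; exact p = 0.125).

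Cells with markers of ependyma, which lines the ventricles, lay farther from members than from microglia-like cells in 4 of 4 sections (exact p = 0.125). The median distance was 483, 787, 770 and 641 µm for members and 469, 736, 600 and 624 µm for microglia-like cells, with only 42 to 87 such cells per section. Members rarely sat together, since the median distance from a member to the next was 285 to 419 µm, and another member lay within 50 µm of 3.08% to 13.5% of them. Members along the midline fissure of Young 2 counted as deep, because the fissure lay inside the outline. Altogether 13 paired comparisons of position and MHC class II were made, and after Benjamini-Hochberg adjustment the exact p of 0.125 became 0.135. The design cannot go lower.

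**Figure D2:**
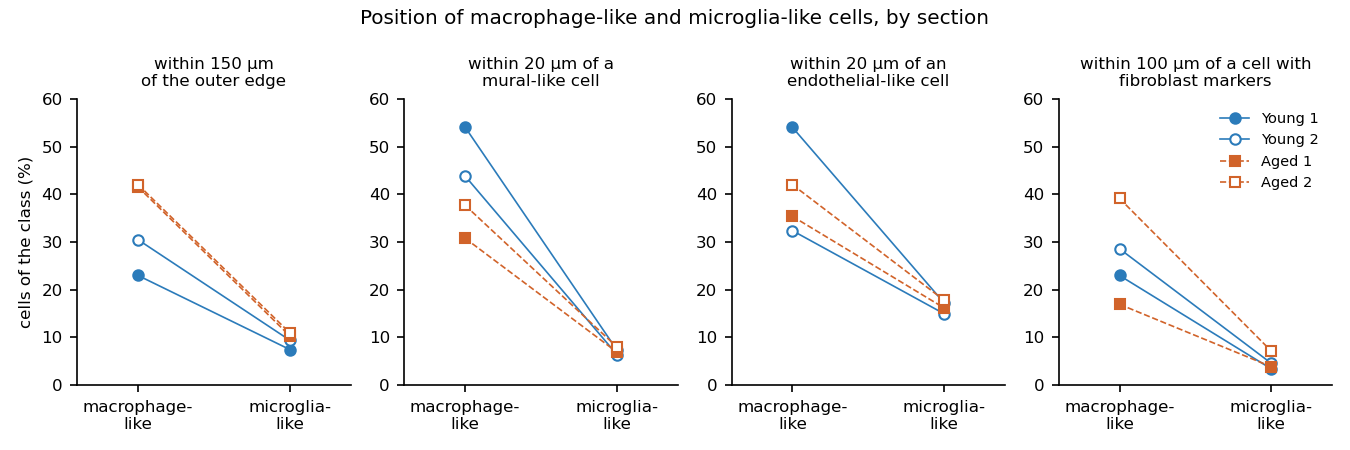
Share of macrophage-like and microglia-like cells (%) near the outer edge, mural-like cells, endothelial-like cells and cells with fibroblast markers, with 1 line per section (blue Young, orange Aged). Each of the 16 lines falls from macrophage-like to microglia-like cells.

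Genes were next compared between macrophage-like and microglia-like cells of the same section. The members stood apart by all 3 MHC class II genes measured, by the lipid carrier Apoe, by the NAD-consuming ectoenzyme Cd38 and by the chemokine Cxcl12, all higher, and by the cytokine Il1a and the integrin chain Itgam, both lower. Of 362 genes tested, 233 (64.4%) passed an adjusted p of 0.05, 112 higher in members (30.9%) and 121 lower (33.4%), with a median log2 difference over all genes of -0.03. With so many genes called, a call alone says little about a gene, and the counts for lists below are to be read against these shares. The comparison was therefore repeated without mixed cells and against microglia-like cells within 20 µm of a vessel cell only, and 144 of the 296 genes tested in all 3 (48.6%) were called the same way each time, 65 higher and 79 lower. Mixed cells are set by markers of other cell types, so the levels of those markers without mixed cells partly follow from the cut. Genes known from vessel walls and meninges, such as Acta2, Myl9 and Aldh1a2, were among the 65. A call in all 3 therefore cannot tell a member's own transcripts from those of adjacent cells.

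All 3 MHC class II genes were higher in members, and stayed so in all 3 comparisons. Cd74, the invariant chain that guides class II molecules to the endosome, had 47.7, 62.6, 44.5 and 73.6 transcripts per 10000 in members of Young 1, Young 2, Aged 1 and Aged 2, and 1.59 ± 0.462 (SD, n = 4) in microglia-like cells. The log2 difference was 5.18 (SE 0.24, edgeR adjusted p = 3.24e-10). The class II chains followed, with H2-Eb1 at 5.74, 15.4, 16.3 and 15 per 10000 in members against 0.273 ± 0.115 (log2 5.55), and H2-Ab1 at 7.07, 9.44, 8.56 and 13.6 against 0.293 ± 0.0866 (log2 4.97). The lowest section of members exceeded the highest of microglia-like cells for each gene. Without mixed cells the log2 differences were 5.63 for Cd74, 6.62 for H2-Eb1 and 6.62 for H2-Ab1.

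The class II transcripts sat in few of the members. At least 1 was found in 16 of 74, 21 of 105, 12 of 65 and 15 of 69 members of Young 1, Young 2, Aged 1 and Aged 2, in all 64 of 313 (20.4%). The 22 cells with at least 10 held 87.2% of the 611 class II transcripts, and the richest cell held 58. These 22 were found in every section, 6, 6, 4 and 6 of them. Of 59 members with Cd74, 33 also had H2-Ab1 or H2-Eb1, and 19 members had all 3 genes. Most members thus had no class II transcript at this depth, which does not show that they lacked class II.

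Detection depends on depth, so each cell was reduced to 100 drawn transcripts, which left out cells with fewer. The expected share with a class II transcript was then 14.6%, 15.5%, 12.4% and 18.1% of members of Young 1, Young 2, Aged 1 and Aged 2 (n = 68, 89, 47 and 57 cells). In microglia-like cells it was 1.62% to 2.20%, in mural-like cells 2.05% to 2.52% and in the cells of no named class 1.51% to 1.85%. All 4 sections of members lay well above these other cells. How much of any of these shares came from stray transcripts was not tested.

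MHC class I genes differed less. Of 5 genes, H2-K1 (log2 1.12, SE 0.21, edgeR adjusted p = 0.000317) and the shared light chain B2m (log2 0.43, adjusted p = 0.0173) were higher in members, and H2-D1, H2-T23 and Tapbp did not pass. B2m did not pass in the stricter comparisons.

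Among lysosome and lipid genes, 2 of 8 were higher and 5 lower in members (median log2 -1.12), against 30.9% and 33.4% of all genes. Apoe was the most abundant gene of the list, with 979.6, 963, 832 and 903 transcripts per 10000 in members of Young 1, Young 2, Aged 1 and Aged 2 and 140 ± 17.1 (SD, n = 4) in microglia-like cells (log2 2.72, SE 0.12, adjusted p = 3.08e-10). Cd68, a lysosomal membrane protein of phagocytes, was also higher (log2 0.83), but did not pass without mixed cells. The protease Ctss was at 65.0, 74.8, 112 and 80.8 per 10000 in members and 278 ± 44.3 (SD, n = 4) in microglia-like cells (log2 -1.75, SE 0.12, adjusted p = 2.07e-08). The lipid-sensing receptor Trem2 (log2 -2.07), the proteases Lgmn (-1.23) and Ctsd (-1.22), and Laptm5 (-1.03) were lower too. Pld4 did not pass.

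Receptors of myeloid cells were mostly lower in members, 6 of 10, with 1 higher (median log2 -0.79). Over all genes 33.4% were lower and 30.9% higher. The integrin chain Itgam was at 5.74, 6.99, 1.71 and 9.30 per 10000 against 33.0 ± 3.24 (SD, n = 4) in microglia-like cells (log2 -2.43, SE 0.29, adjusted p = 4.85e-06). The purine receptor P2ry13 (log2 -2.08), Lair1 (-1.76), Cd37 (-1.53), the Fc receptor Fcgr1 (-0.79) and Csf1r (-0.79) were lower as well. Csf1r, the growth factor receptor on which macrophages and microglia depend, was still abundant in members, at 209, 235, 208 and 210.2 per 10000 against 377 ± 49.9. The exception was Adgre1, which encodes F4/80, at 68.5, 57.7, 65.1 and 70.8 in members and 30.8 ± 3.87 in microglia-like cells (log2 1.09, SE 0.16, adjusted p = 3.23e-05). Tyrobp, Fcer1g and Cd84 did not pass.

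**Figure D3:**
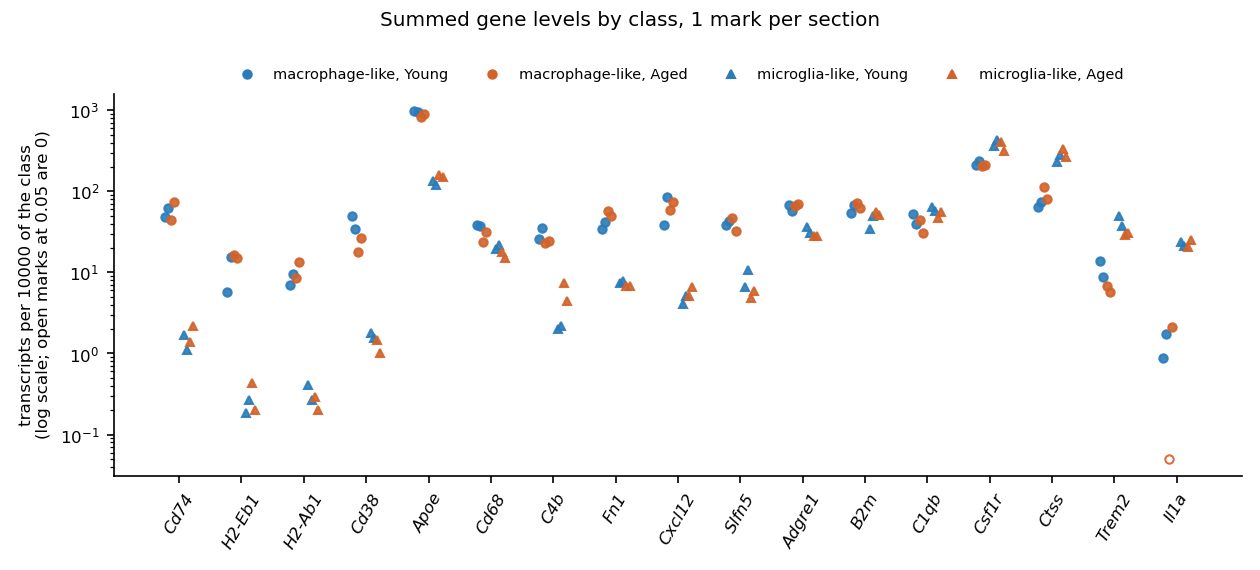
Transcripts per 10000 (log axis) of 17 genes in macrophage-like (circles) and microglia-like cells (triangles), with 1 mark per section, blue Young and orange Aged, and an open mark for a section at 0. The 3 MHC class II genes and Cd38 are at least a log unit higher in macrophage-like cells, and Il1a is lower by about a log unit or more.

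Of 6 complement genes, 2 were higher and 2 lower (median log2 -0.35), near the shares over all genes (30.9% higher, 33.4% lower). C4b, of the classical pathway, was at 26.1, 35.0, 23.1 and 24.3 per 10000 in members and 4.01 ± 2.54 (SD, n = 4) in microglia-like cells (log2 3.01, SE 0.34, adjusted p = 3.16e-06). The receptor C3ar1 was higher with all members (log2 0.73), but did not pass without mixed cells (log2 0.09). The initiator subunits C1qb (log2 -0.43) and C1qc (-0.45) were lower. C1qa (-0.27) and C3 did not pass.

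Among chemokines and cytokines, 14 of 16 listed genes could be tested, and 3 were higher and 4 lower (median log2 -0.15). Over all genes, 30.9% were higher and 33.4% lower. Cxcl12, which retains leukocytes and their precursors in tissues, was at 38.4, 85.0, 59.1 and 73.6 per 10000 in members against 5.24 ± 1.06 (SD, n = 4; log2 3.59, SE 0.20, adjusted p = 1.81e-09). Cxcl1 and Cxcl3, which attract neutrophils, were higher but scarce, at means of 2.30 and 3.02 per 10000, and Cxcl3 did not pass without mixed cells, nor Cxcl1 with at least 4 of the 5 markers required. Il1a, an alarm cytokine, was nearly absent from members, with 2, 5, 0 and 3 transcripts in the 4 sections, and stood at 22.7 ± 2.25 per 10000 in microglia-like cells (log2 -4.13, SE 0.38, adjusted p = 3.26e-07). Ccl9 (log2 -1.29), the alarmin Il33 (-0.71) and Tgfb1 (-0.61) were lower too, but Ccl9 and Il33 did not pass without mixed cells, nor Il33 against microglia-like cells near vessels.

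Of 12 interferon response genes, 5 were higher and 2 lower (median log2 0.44), against 30.9% and 33.4% of all genes. Slfn5 led, at 38.0, 43.0, 47.1 and 32.2 per 10000 in members and 7.04 ± 2.63 (SD, n = 4) in microglia-like cells (log2 2.54, SE 0.23, adjusted p = 2.91e-07). The receptor chain Ifnar1 (log2 0.95) was called in all 3 comparisons, whereas Ly6a, Tnfsf10 and Parp14 were not. The transcription factor Irf8 (log2 -1.54) was lower in all 3, and Isg20, with 5 transcripts in members, did not pass without mixed cells. Among 9 transcription and stress genes, the shear-responsive factor Klf2 was higher (log2 2.40) and Nfkb1 lower (-0.74).

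The NAD-consuming enzyme Cd38 was at 49.9, 33.9, 18.0 and 26.5 per 10000 in members of Young 1, Young 2, Aged 1 and Aged 2, against 1.45 ± 0.326 (SD, n = 4) in microglia-like cells (log2 4.46, SE 0.26, adjusted p = 3.09e-09). Nampt, which makes NAD, was higher (log2 0.93), and Bst1 did not pass. Of 7 matrix genes tested, 4 were higher and none lower (median log2 2.11), against 30.9% and 33.4% of all genes. Fibronectin (Fn1) was at 34.0, 42.0, 56.5 and 50.1 per 10000 against 7.21 ± 0.505 (log2 2.63, SE 0.21), and the protease inhibitor Timp3 at 198, 255, 265 and 237 against 29.7 ± 7.98 (log2 3.04, SE 0.14). The collagen Col4a2 and Mmp13 were higher as well, and neither was called in all 3 comparisons.

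Several of the largest differences were in genes known from vessel walls and meninges. By size, the 10 highest in members were Acta2 (log2 6.81), Aldh1a2 (5.90), H2-Eb1, Cd74, H2-Ab1, Aox3 (4.85), Mgp (4.83), Myl9 (4.81), Cd38 and Inmt (4.20). Acta2 and Myl9 are contractile genes of smooth muscle, Aldh1a2 makes retinoic acid in meningeal cells, and Mgp is a matrix protein. All 5 mural markers and 3 of 4 fibroblast markers were higher in members, against 30.9% of all genes. Acta2 had 164, 113, 87.4 and 145 transcripts per 10000 in members and 1.17 ± 0.348 (SD, n = 4) in microglia-like cells, and its log2 difference was 3.32 without mixed cells and 5.45 against microglia-like cells near vessels. Aldh1a2 kept 6.43 and 5.29. How far segmentation gave members the transcripts of adjacent cells was not tested.

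At the other end were Il1a and genes of neurons and oligodendrocytes, namely Mag (log2 -4.07), Rgs9 (-3.35), Slain1 (-3.10), Gpr17 (-3.02) and Pde10a (-2.91). Tnfaip6 had no transcript in members and 263 in microglia-like cells, which makes it at least 4.65-fold lower, with 3 counts over the group as the floor. Oprm1, an opioid receptor, had 2 transcripts in members, a ratio to microglia-like cells of 0.117 with a 95% counting interval of 0.0141 to 0.425. Of 10 neuron markers 8 were lower, as were all 5 oligodendrocyte markers, against 33.4% of all genes. Of these, 5 and 2 were called in all 3 comparisons, among them the comparison that leaves out cells by these same markers. The sums were 95.7 ± 23.5 (SD, n = 4) per 10000 for neuron markers in members against 317 in microglia-like cells, and 23.9 ± 5.22 against 104 for oligodendrocyte markers. At least 3 neuron markers were detected in 28.7% to 39.5% of a section's microglia-like cells, against 8.57% to 16.2% of its members. The part of adjacent neurons in these differences was not tested.

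Surface and deep members were then compared within sections. Surface members carried more Gfap, Aqp4 and Gja1, known from astrocytes, and deep members more of the vessel-wall genes Acta2, Rgs5 and Vtn. Astrocyte genes did not all go one way, since of 6 markers tested 2 were higher at the surface (Aqp4 and Gja1), 1 was higher in deep cells (Slc6a11) and 3 did not pass. Of 151 genes that could be tested, 40 passed (26.5%), 20 higher at the surface (13.2%) and 20 higher in deep cells (13.2%), with a median log2 difference over all genes of -0.04. Mrc1, one of the genes that chose the cells and so not tested, was at 399.7, 342, 410.2 and 310.1 per 10000 in surface members of Young 1, Young 2, Aged 1 and Aged 2 and at 314, 353, 402 and 276 in deep members.

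Gfap, the intermediate filament of astrocytes, was at 516, 434, 408 and 412 per 10000 at the surface and 30.2, 29.4, 41.7 and 77.0 in deep members, so that the zones did not overlap (log2 3.56, SE 0.28, edgeR adjusted p = 9.93e-06). The water channel Aqp4 of astrocyte endfeet (log2 2.17) and the gap junction protein Gja1 (1.56) followed, with Nnat (2.83), Tspan13 (2.45), Nbl1 (1.72), the transporters Slc38a1 (1.57) and Slc16a1 (1.51), Igfbp5 (1.55) and 6330403K07Rik (1.55) among the 10 largest. Of the lists, the surface also had more Fn1 (32.1, 64.3, 73.6 and 83.2 against 34.4, 37.4, 45.9 and 29.9 per 10000, log2 0.88, adjusted p = 0.0401) and more B2m (log2 0.65, adjusted p = 0.0451). For Fn1 the zones overlapped, as Young 1 was no higher at the surface.

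Deep members had more Acta2, at 189.6, 133, 142 and 229.9 per 10000 against 20.4, 16.6, 0 and 5.67 at the surface (log2 -3.94, SE 0.46, adjusted p = 0.000166). Rgs4 (log2 -3.66), Inmt (-3.54), the podocalyxin gene Podxl (-2.68), the astrocyte GABA transporter Slc6a11 (-2.54), Myl9 (-2.05), the chloride channel Ano1 (-1.97), Ptprg (-1.93), the endothelial receptor Adgrl4 (-1.87) and Vtn (-1.79) were the other 9 of the 10 largest. Inmt, a fibroblast marker, had only 3 transcripts in surface members. Another of the fibroblast markers, Aldh1a2, went the other way and was higher at the surface (log2 1.17, SE 0.29, adjusted p = 0.0107). Apoe was also higher in deep members, at 1039.9, 1020.9, 907 and 1019.8 per 10000 against 642, 676, 711 and 711 (log2 -0.41, SE 0.10, adjusted p = 0.0129), with no overlap between the zones, but it did not pass without mixed cells.

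**Figure D4:**
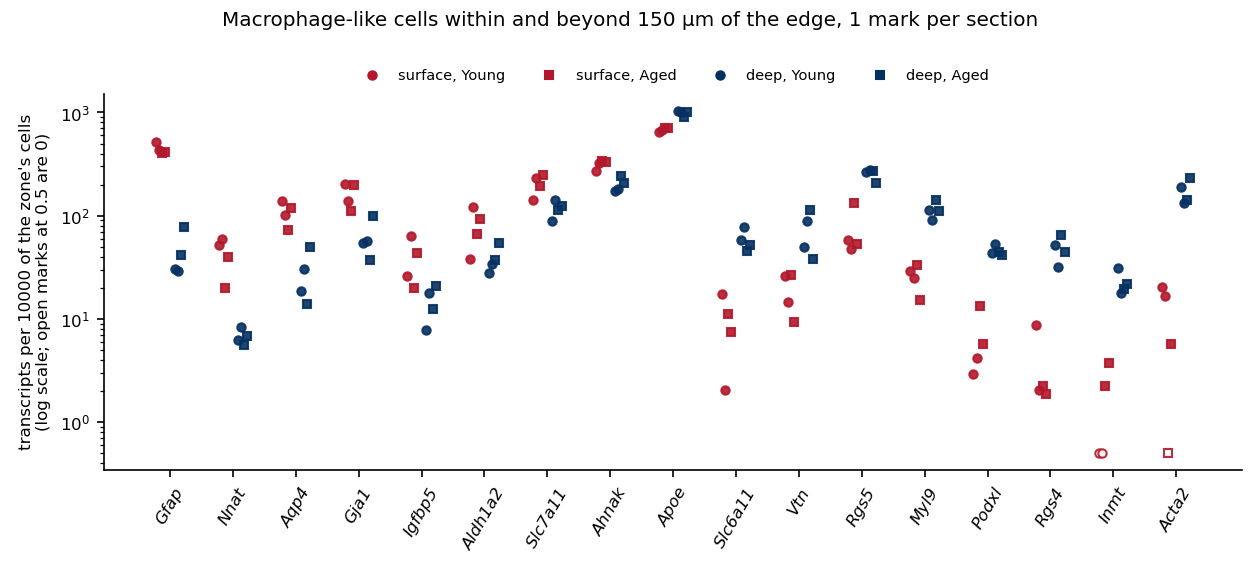
Transcripts per 10000 (log axis) of 17 genes in surface (red) and deep (dark blue) macrophage-like cells, with 1 mark per section (circles Young, squares Aged) and an open mark for a section at 0. Gfap, Aqp4 and Gja1 on the left are higher at the surface. The astrocyte transporter Slc6a11, the fibroblast marker Inmt and genes of vessel walls on the right are higher in deep cells.

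Markers of other cell types moved with the zones. The summed mural markers were at 157, 108, 198 and 94.6 per 10000 in surface members and 647, 613, 687 and 610.5 in deep members, and the astrocyte markers at 420.1, 297, 268 and 397 against 172, 215, 135 and 263. Without mixed cells 58 genes could be tested and 6 passed in place of 40, Gfap, Gja1 and Rgs5 among them. Gja1, Rgs5, Acta2, Aqp4, Vtn and Myl9 are markers by which mixed cells were left out, so their levels there are partly set by that cut. Acta2, Aqp4 and Vtn could not be tested there, and Myl9 turned to a log2 of 0.64. None passed when zones were set by distance to cells with fibroblast markers, where Acta2 (log2 0.45), Myl9 (0.27), Apoe (0.063), Adgrl4 (0.014) and Aqp4 (-0.11) changed sign. Neither the part of adjacent cells nor that of the smaller number of cells was tested.

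No MHC class II gene passed between the zones. Cd74 was at 84.6, 147, 69.1 and 22.7 per 10000 in surface members and 41.1, 45.4, 29.2 and 105 in deep members (log2 0.73, SE 0.51, adjusted p = 0.31). It was higher at the surface in 3 sections and lower in Aged 2, as were H2-Eb1 (log2 1.55, SE 0.64, adjusted p = 0.088) and H2-Ab1 (log2 1.21, SE 0.68, adjusted p = 0.196). The expected share of cells with a class II transcript in 100 was 23.9%, 26.8%, 19.8% and 11.9% at the surface and 11.8%, 10.9%, 7.46% and 22.4% in deep cells (difference 7.46 ± 12.1 percentage points, SD, n = 4; exact p = 0.25). The richest cell of a zone and section alone held 32.3% to 77.8% of its class II transcripts.

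Relative to kept cells, both aged sections held fewer members than either young section, but this order did not hold in every setting. Members made up 0.109% and 0.148% of kept cells in Young 1 and Young 2, and 0.0950% and 0.0925% in Aged 1 and Aged 2. The difference of -0.0348 percentage points had no overlap between ages, with a two-sided exact permutation p of 0.333, the smallest that 2 sections against 2 can give. It came to -0.0151 without Young 2. Without mixed cells the shares were 0.0323%, 0.0650%, 0.0453% and 0.0308%, so that Young 1 fell between the aged sections and the difference was -0.0106. With all sections thinned to one depth Young 1 (0.0951%) and Aged 1 (0.0950%) were level, with 0.123% in Young 2 and 0.0864% in Aged 2. Per 100 microglia-like cells there were 4.11, 6.20, 5.68 and 4.55 members, which overlapped between ages (exact p = 1).

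At the surface, 0.271 and 0.580 members per 100 kept cells in Young 1 and Young 2 stood against 0.488 and 0.409 in Aged 1 and Aged 2, with overlap. In deep tissue, 0.0923 and 0.112 in the young sections stood against 0.0604 and 0.0592 in the aged sections, without overlap (exact p = 0.333). The deep values still did not overlap without mixed cells, at 0.0275 and 0.0352 against 0.0207 and 0.0178, or at equal depth, at 0.0818 and 0.0961 against 0.0604 and 0.0551. Accordingly 26.7% ± 5.31 of members (SD, n = 2) were surface cells in young and 41.8% ± 0.347 in aged sections, a difference of 15.1 percentage points (exact p = 0.333). At equal depth the surface shares were 21.9%, 27.9%, 41.5% and 42.2%, but without mixed cells they were 22.7%, 50%, 58.1% and 47.8%, and the ages overlapped. Microglia-like cells also lay at the surface more often in aged sections, at 7.44% and 9.39% against 10.3% and 10.9%. A mural-like cell lay within 20 µm of 48.9% ± 7.24 of young and 34.2% ± 4.89 of aged members (SD, n = 2; exact p = 0.333), and among deep members alone it overlapped between ages. The outline of Young 1 was irregular, and the parts of the cut and of the outline in these values were not tested.

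**Figure D5:**
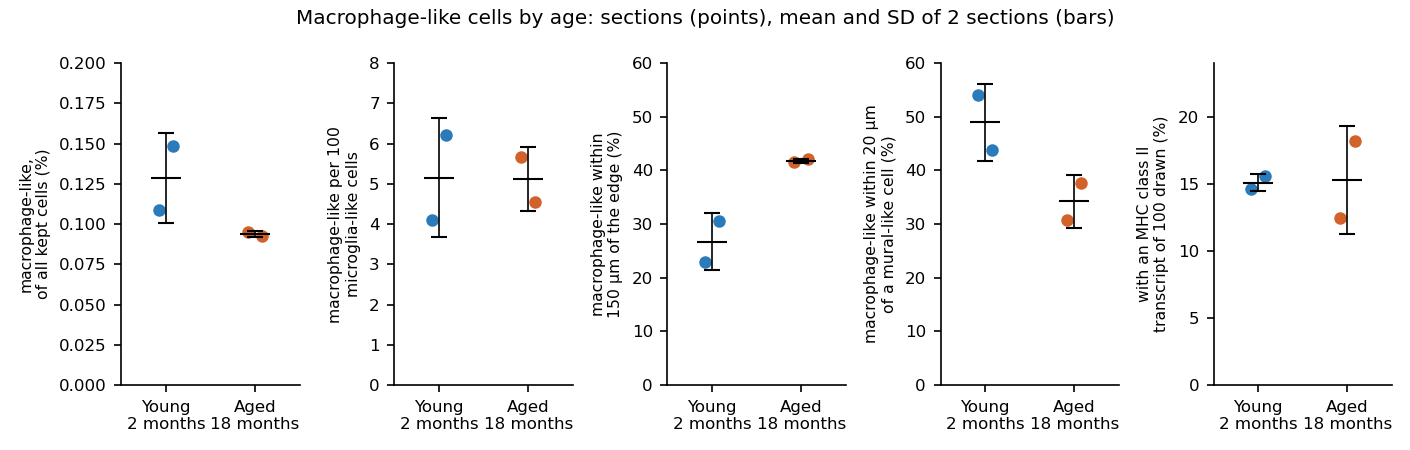
Macrophage-like cells by age, with 1 point per section and bars for the mean and SD of 2 sections, as a share of kept cells (%), per 100 microglia-like cells, within 150 µm of the edge (%), within 20 µm of a mural-like cell (%) and with an MHC class II transcript in 100 drawn (%). Ages overlap per 100 microglia-like cells and in MHC class II, and do not in the other panels.

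No gene passed between ages. Of 229 genes tested in members with edgeR, 0 passed (0%), while 30 had an unadjusted p under 0.05, 10 of them higher in aged sections and 20 lower. DESeq2 called 1 gene (Gfap) and limma 0. The median log2 change over all genes was -0.02.

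The lists of immune genes held no call. MHC class II genes had a median of 0.45 (3 of 3 above 0, against 112 of 229 over all genes), complement -0.29, lysosome and lipid genes -0.08, myeloid receptors -0.10, interferon response -0.22, matrix 0.17 and NAD genes -0.22. Cd74 was at a log2 change of 0.13 (SE 0.32) and Apoe at -0.14 (SE 0.17). Of members reduced to 100 transcripts, 15.1% ± 0.646 at 2 months and 15.3% ± 4.05 at 18 months had a class II transcript (SD, n = 2; exact p = 1), but this difference was -11.5 percentage points without mixed cells (exact p = 0.333).

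The genes with the lowest p, named after their values were seen, included genes known from astrocytes, vessels and neurons. Gfap was at 104, 97.6, 182 and 204 per 10000 in Young 1, Young 2, Aged 1 and Aged 2 (log2 0.97, SE 0.21, adjusted p = 0.269). The astrocyte transporter Slc6a11 had an estimate below 0 (log2 -0.78, SE 0.28, adjusted p = 0.308). Of 6 neuron markers tested, 5 had estimates above 0, and none passed. Col4a2, a collagen of vessel basement membranes, was at 20.3, 12.9, 2.57 and 4.29 (log2 -2.19, SE 0.51, adjusted p = 0.269), and the endothelial transporter Slco1c1 at 37.6, 35.7, 19.7 and 8.58 (log2 -1.38, SE 0.41). The summed endothelial markers were 146, 123, 115 and 75.1 per 10000 and 6 of 7 had estimates below 0, as did all 5 mural markers, some near 0 such as Myl9 (-0.007). None of these markers passed, and over all genes 112 of 229 estimates were above 0. The parts of vessel proximity and of the larger share of surface cells in aged sections in these values were not tested.

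Beside Col4a2, the listed genes with an unadjusted p under 0.05 were Cd84, Lair1, Cd38 and the interferon response gene Ly6e. Cd84, a receptor of the SLAM family, was at 57.9, 57.0, 92.5 and 93.0 per 10000 (log2 0.72, SE 0.22, adjusted p = 0.269), and the inhibitory collagen receptor Lair1 at 15.9, 21.0, 30.8 and 32.2 (log2 0.79, SE 0.33, adjusted p = 0.379). Cd38 was at 49.9, 33.9, 18.0 and 26.5 (log2 -0.87, SE 0.35, adjusted p = 0.379). Ly6e was at 69.8, 57.0, 39.4 and 32.2 (log2 -0.80, SE 0.27, adjusted p = 0.276). Ages did not overlap for these genes, but they were picked by that unadjusted p, so this adds nothing to it. None passed after adjustment. In microglia-like cells Cd84 was at 61.5, 61.6, 77.6 and 70.5.

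The change with age was not shown to differ between macrophage-like and microglia-like cells, as 0 of 362 genes passed the edgeR interaction test (0%), with 34 at an unadjusted p under 0.05 and 0 called by DESeq2 or limma. Without mixed cells 3 of 312 genes were called, Cd74, Gfap and Rgs5. Each had a lower change with age in members than in microglia-like cells. Between surface and deep members, the change with age differed for 1 of 151 genes (0.662%), Sema7a, a membrane-anchored semaphorin. It was at 2.92, 4.15, 31.2 and 9.46 per 10000 in surface members of Young 1, Young 2, Aged 1 and Aged 2 and at 30.2, 26.9, 6.95 and 5.75 in deep members. Its values were higher with age at the surface and lower in deep cells, without overlap in either zone (interaction log2 4.31, SE 0.81, adjusted p = 0.0482). It rested on 154 transcripts, 22 of them at the surface, and it was not called with RLE scaling, DESeq2 or limma, with at least 4 markers, at equal depth or with an edge of 250 µm, nor without Young 2 or without Aged 1. With zones by cells with fibroblast markers its sign turned (log2 -0.47).

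The 3 MHC class II genes did not pass this test, with interactions of -2.04 for Cd74 (SE 0.82, adjusted p = 0.329), -2.55 for H2-Eb1 (SE 0.90, adjusted p = 0.242) and -3.07 for H2-Ab1 (SE 0.91, adjusted p = 0.172). All 3 were called without a filter on low counts, without Young 1 and without Aged 1, and Cd74 also without mixed cells.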

How the data were processed

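MERFISH was run by the authors on 4 sections, 2 per age, grouped by the titles and age labels. Transcripts were decoded with MERLIN and cells segmented with Vizgen software; the genome build of the probes is not given in the sources used here. The authors deposited a raw count of each of 383 genes per cell, without normalization, and per the file headers each cell's volume and position, an imaging signal used as given. A table of the authors' mean counts per gene served only to check the reading. The first lines of the young files carry other numbers than the titles, so which is Young 1 rests on the titles.

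Cells were filtered only by the limits on detected genes and cell volume of the study's methods. The study also removed cells with markers of multiple cell types, and that step was not applied here. No doublet caller was run, and mixed cells were kept unless stated. Levels are summed counts per 10000 transcripts of a class. The outer edge was drawn on a 20 µm grid of kept cells, closed over 60 µm and opened over 40 µm, with pieces under 0.5 square millimetres dropped and holes filled. Endothelial-like and mural-like cells had at least 3 of 7 or 5 markers at 4% of transcripts or more. Cells with fibroblast markers had at least 2 of 4 at 4% or more, and cells with ependymal markers at least 2 of 3 at 1% or more. None of these cells was macrophage-like or microglia-like.

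Counts were summed per section and class or zone and fitted with edgeR 4.0.16 (TMM, filterByExpr, quasi-likelihood test, Benjamini-Hochberg over all genes tested, threshold 0.05) in R 4.3.3, with the section as a block except between ages. The 9 rule genes were fitted but not called. Differences are log2. Alternatives were RLE scaling, DESeq2 1.42.0, limma 3.58.1, no filter, other rules and zones, equal depth, and leaving out each section. Scripts used Python 3.11.15, numpy 2.4.6, pandas 2.3.3 and SciPy 1.17.1, and tests were tried on simulated data. Named genes were those of 10 lists plus up to 10 called genes per direction; some were fitted but are not reported here, and the lists are counted without them. The members, lists and tests were chosen with earlier results of these data known. Kept cells held 18765491 to 36035355 transcripts per section and members 11677 to 28593. Intervals cover counting error only.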

Additional observations from a re-analysis of the deposited data

Results flagged for a closer look

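The change of Sema7a with age differed between surface and deep macrophage-like cells by a log2 of 4.31 (SE 0.81, edgeR adjusted p = 0.0482). It was flagged because the test of the difference between the zones passed, on 22 transcripts at the surface and 132 in deep cells.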

How the results depend on the processing

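Counts of genes called varied as follows. Between ages (0 genes), 1 was called with DESeq2, 2 without a filter on low counts, 4 with at least 4 of 5 macrophage markers and 3 in deep members alone, an alternative chosen after seeing the data. With the replicate number as a block 8 were called, but the numbers only name the sections (deviations of same-numbered sections correlated at r = 0.05 over 237 genes). Leaving out a section gave 0 to 2, the 2 without Young 2. Between classes (233 genes), leaving out a section gave 209 to 238, mixed cells left out 162 and microglia-like cells near vessels, also added later, 208. The median over all genes went from -0.03 to -0.31 without mixed cells, to -0.24 with at least 4 markers and to -0.18 with limma. For the difference in age change between classes (0), 2 were called without a filter, 3 without mixed cells and 0 to 1 with a section left out (1 without Aged 1). Between zones (40), 26 were called with DESeq2, 69 without a filter, 18 with at least 4 markers, 6 without mixed cells, 0 with zones by cells with fibroblast markers and 29 to 51 with a section left out. For the difference in age change between zones (1), 0 were called with RLE, DESeq2, limma, at least 4 markers, equal depth, 250 µm or zones by cells with fibroblast markers, 2 with 100 µm, 5 without a filter and 0 to 6 with a section left out (0 without Young 2, 6 without Young 1, 6 without Aged 1 and 5 without Aged 2). Differences with a section left out were -0.0546 to -0.0151 percentage points for the share of members with age, -1.09 to 1.0 for members per 100 microglia-like cells, 11.3 to 18.8 for the surface share with age, -2.66 to 3.06 for the class II share with age, 22.6 to 27.8 for the surface share against microglia-like cells and 30.3 to 38.0 for that near mural-like cells. Without mixed cells the first was -0.0106, the class II share -11.5, the surface share against microglia-like cells 34.8 and that near mural-like cells 23. With at least 4 markers the surface share with age differed by 30.9. Signs turned, all without a call, for Myl9 between zones without mixed cells (log2 0.64), and with zones by cells with fibroblast markers for Acta2 (0.45), Adgrl4 (0.014), Apoe (0.063), Aqp4 (-0.11), Myl9 (0.27) and the interaction of Sema7a (-0.47). The cause was not tested. Of the named genes, 40 of 58 between classes and 0 of 23 between zones were called under every alternative. Members were few and shallow, so scarce genes could be neither called nor dismissed.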
